A study of Mus musculus with 28 samples.

Results

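The glucose uptake and glycolysis genes described here were read in mouse MN1 cells and in primary cortical neurons, as total mRNA and as ribosome footprints, the mRNA stretches that ribosomes shield from RNase. The 10 genes were taken by name: the glucose transporters Slc2a1 and Slc2a3, the hexokinases Hk1 and Hk2, the phosphofructokinase Pfkp, the aldolases Aldoa and Aldoc, the pyruvate kinase gene Pkm, and the lactate dehydrogenase genes Ldha and Ldhb. All 10 were found among the 45513 genes of the deposited tables. The question was which of 2 isozymes each cell type used, and whether this differed between genotypes or between the library types.

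MN1 is a clonal mouse line made by fusing spinal motor neurons with neuroblastoma cells. MN1 cells at passage 10 to 12 were transiently transfected to express GFP, human TDP-43 (hTDP-43) or its ALS-linked mutant hTDP-43-A315T, in 2 cultures each, and received 100 µg/ml cycloheximide for 3 min before lysis. Cortical neurons were taken at embryonic day 16 from C57BL/6J mice hemizygous for Prp-hTARDBP WT (hTDP-43) or Prp-hTARDBP A315T (hTDP-43-A315T), both driven by the prion protein promoter, or from non-transgenic littermates (WT). They were kept for 14 days in vitro, with AraC added on day 4 against dividing cells, and received no cycloheximide before lysis. There were 3 cultures of each transgenic genotype and 2 of WT. Every culture gave 1 footprint library and 1 library of poly(A)-selected, fragmented total mRNA, 28 libraries in all. The sources do not say whether replicates were separate litters or platings, so p-values measure the spread between these cultures. Cell type could not be told apart from origin, culture dates or the cycloheximide step, since each of these differed between MN1 cells and neurons.

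Glycolysis splits glucose into pyruvate in a chain of cytosolic enzymes. Slc2a1 (GLUT1) and Slc2a3 (GLUT3) carry glucose across the plasma membrane, and GLUT3 is known as the high-affinity carrier of neurons, whereas GLUT1 serves the blood-brain barrier, glia and dividing cells. Hexokinases trap glucose as glucose-6-phosphate. Hk1 is the usual form of brain, and Hk2 that of muscle, fat and tumour lines. Phosphofructokinase commits the sugar to glycolysis, aldolase cleaves it into trioses, and pyruvate kinase makes pyruvate and ATP. Lactate dehydrogenase interconverts pyruvate and lactate: Ldha encodes the M subunit, associated with lactate formation, and Ldhb the H subunit, associated with lactate use.

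Reads assigned to genes numbered 332370 to 1219222 in MN1 footprint libraries, 1328528 to 2988339 in MN1 total mRNA libraries, 166064 to 2528820 in neuron footprint libraries and 600385 to 6969578 in neuron total mRNA libraries. The 10 genes took 0.362% to 0.442% of MN1 footprint reads, 0.312% to 0.382% of MN1 total mRNA reads, 0.303% to 0.447% of neuron footprint reads and 0.135% to 0.257% of neuron total mRNA reads. Reads on Tardbp were higher in the MN1 total mRNA libraries of hTDP-43 and hTDP-43-A315T (347 to 425 CPM) than in those of GFP (224 to 246 CPM), but they were not higher in transgenic neurons (58.3 to 88.0 CPM) than in WT neurons (65.4 to 113 CPM), and whether human transcripts align to the mouse gene was not tested. The summed level of neuron markers was 5750 to 6945 CPM in neuron total mRNA, against 416 to 540 CPM in MN1 cells. That of motor neuron markers was 52.5 to 79.4 CPM in MN1 cells, against 5.38 to 12.4 CPM in neurons. Among them, Isl1 had a median of 32.1 CPM and the defining cholinergic enzyme gene Chat of 1.02 CPM in MN1 cells. Proliferation markers reached 1113 to 1510 CPM in MN1 cells, against 13.0 to 30.3 CPM in neurons. All 11 astrocyte markers were present in neuron total mRNA, with 492 to 937 CPM in sum, against 62.9 to 85.6 CPM in MN1 cells, where Gja1, Aldh1l1, S100b and Fabp7 were at 0. The neuron cultures thus also held RNA of astrocyte markers. In bulk libraries fewer cells of a type and less RNA per cell cannot be told apart.

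One library stood apart. In the total mRNA of WT replicate 3, reads on Lars2 made up 18.8% of all assigned reads, against 14.1% in hTDP-43 replicate 3 and 3.09% to 7.49% in the other neuron total mRNA libraries. That WT library had the lowest neuron level of Slc2a1, Slc2a3, Hk1, Aldoa, Pkm and Ldha and the highest of Pfkp. Results that rest on it are given with and without it below.

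Levels are given in CPM (counts scaled to a common library size) on the TMM scale, in which library sizes are adjusted so that most genes do not shift, and levels of different genes are compared only after division by exon length (RPKM, CPM per kb of exon). By median RPKM in MN1 total mRNA the order was Pkm (321), Ldha (282), Aldoa (253), Pfkp (22.9), Hk2 (14.98), Slc2a1 (13.4), Slc2a3 (11.9), Hk1 (10.5), Aldoc (3.71) and Ldhb (0). In neuron total mRNA it was Aldoa (191), Pkm (185), Ldha (97.3), Ldhb (94.3), Hk1 (43.5), Pfkp (38.1), Slc2a3 (32.7), Aldoc (10.1), Slc2a1 (5.71) and Hk2 (0.696). Neighbours in these orders often overlapped over libraries, as Pkm, Ldha and Aldoa as well as Hk2, Slc2a1, Slc2a3 and Hk1 did in MN1 cells (7.84 to 17.8 RPKM for the latter 4) and Aldoa and Pkm or Ldha and Ldhb did in neurons. The minor members thus changed places: Hk2 came before Hk1 in MN1 cells and last of all in neurons, and Ldhb was last in MN1 cells and beside Ldha in neurons. That Ldhb was near Ldha in neurons holds per kb of exon (mean log2 ratio −0.13 in total mRNA). Per kb of coding sequence Ldhb was lower (−0.95).

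**Figure D1:**
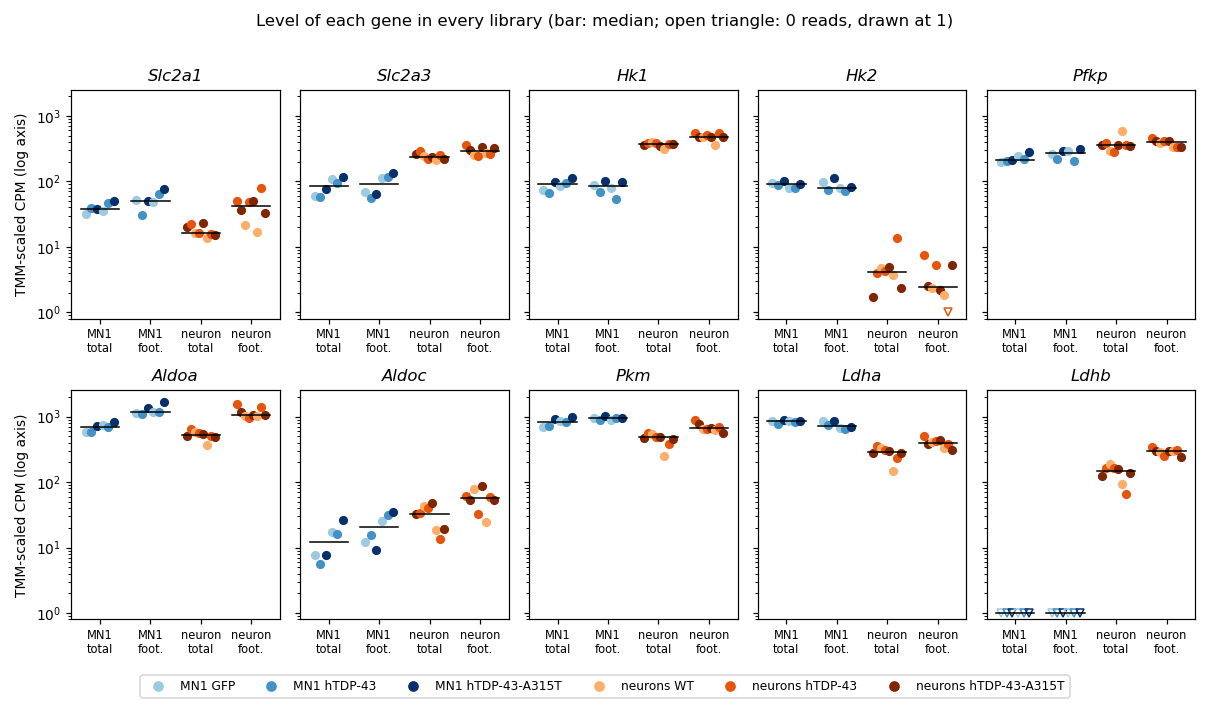
Level of each of the 10 genes in all 28 libraries, in TMM-scaled CPM on a log axis, with points coloured by genotype, a bar at the median of each group of libraries, and open triangles at 1 for libraries with 0 reads. Hk2 lies at 78.7 to 102 CPM in MN1 total mRNA and at 1.69 to 13.5 CPM in neuron total mRNA, and Ldhb at 0 in every MN1 library and at 65.0 to 189 CPM in neuron total mRNA.

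All positions are of GRCm38, and all 10 are protein-coding genes whose reads were counted over all exons, untranslated regions included. Slc2a1 (ENSMUSG00000028645) spans chr4:119108711-119137330 on the plus strand and Slc2a3 (ENSMUSG00000003153) chr6:122727809-122801640 on the minus strand. Hk1 (ENSMUSG00000037012) lies at chr10:62268855-62379908 and Hk2 (ENSMUSG00000000628) at chr6:82725025-82774454, both on the minus strand. Pfkp (ENSMUSG00000021196) lies at chr13:6579768-6648777 and Aldoa (ENSMUSG00000030695) at chr7:126795234-126800751, both on the minus strand, and Aldoc (ENSMUSG00000017390) at chr11:78322968-78327781 on the plus strand. Pkm (ENSMUSG00000032294) at chr9:59656368-59679375 and Ldha (ENSMUSG00000063229) at chr7:46841475-46855627 are on the plus strand, and Ldhb (ENSMUSG00000030246) at chr6:142490249-142507957 is on the minus strand. Reads that align to processed copies elsewhere in the genome can be lost. Of the 30-base stretches of their exons, 40.7% were unique in the genome for Pkm, 58.4% for Ldhb, 67.1% for Ldha and 76.5% for Aldoa, against 96.3% to 100% for the other 6. The levels of these 4 genes are therefore uncertain. Gene counts do not separate the splice forms of Pkm (M1 and M2). The counting ignored strand and dropped reads that overlapped 2 genes, which concerns 3.96% of the exon bases of Pfkp (shared with Pitrm1), 3.68% of those of Slc2a1 (antisense Gm12868) and 1.84% of those of Hk1 (antisense Hk1os).

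Since several of these genes are known targets of hypoxia-inducible factor (HIF), their start regions are shown with the letters ACGTG, the core of the HIF response element, in capitals wherever it occurs in the printed stretch on either strand (CACGT where it reads on the opposite strand). The windows are RefSeq promoters of the GRCm38.p6 build, 250 bases before to 50 bases after each start, and are printed 5′ to 3′ along the gene around 1 match per gene.
Slc2a1, chr4:119108697-119108725, plus strand: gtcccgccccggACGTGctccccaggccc
Hk1, chr10:62340398-62340426, minus strand: cgcgcgctccttACGTGgggaACGTGcag
Hk2, chr6:82774490-82774518, minus strand: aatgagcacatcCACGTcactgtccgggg
Aldoa, chr7:126799364-126799392, minus strand: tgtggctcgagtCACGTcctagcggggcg
Aldoc, chr11:78323088-78323116, plus strand: cccccagggagtCACGTagctctgcggca
Pkm, chr9:59657140-59657168, plus strand: ctccgatccggtCACGTccgcgccgcagc
Ldha, chr7:46845744-46845772, plus strand: cggcccagcctaCACGTGggttcccgcac
The core occurred in 7 of the 9 genes with a promoter in the table, in 8 of their 15 windows, and in 19.6% of all 32851 windows of this length. Among the 8 windows, 2 of Aldoa overlap and share 1 match. Searching both strands counts the palindrome CACGTG on each, as in Ldha. The windows of Hk1, Hk2 and Pkm held 2 matches each and that of Ldha 5, of which not all are printed. No match fell in the windows of Pfkp and Ldhb, which says only that these letters are not there. Of the 7 genes with the core, Slc2a1, Hk2, Pkm, Ldha and Aldoa were higher in MN1 total mRNA, and Hk1 and Aldoc in neurons, as described next. HIF binding was not measured, and a relation of the core to these levels was not tested.

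The first comparison set the 8 neuron cultures against the 6 MN1 cultures. In total mRNA all 10 genes differed between the cell types by edgeR's quasi-likelihood test (adjusted p under 0.05), 5 higher in neurons (Slc2a3, Hk1, Pfkp, Aldoc, Ldhb) and 5 lower (Slc2a1, Hk2, Aldoa, Pkm, Ldha). In footprints 9 of 10 differed, in the same directions, and Aldoa did not pass. These counts are near the background, as 81.0% of all genes tested differed in total mRNA (42.6% higher and 38.4% lower in neurons) and 82.6% in footprints (42.7% higher and 39.9% lower), so the sizes carry more than the calls. The ranges over libraries did not overlap for 7 of the 10 genes in total mRNA (background 62.8%) and for 6 of 10 in footprints (background 60.1%). The median log2 difference over the 10 genes was 0.17 in total mRNA and 0.21 in footprints, beside 0.09 and 0.05 over all genes.

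Of the transporters, Slc2a1 ranged from 31.7 to 50.6 CPM with a median of 38.2 in MN1 total mRNA and from 13.8 to 22.96 CPM with a median of 16.3 in neurons. Every MN1 library lay above every neuron library, and the gene was 2.24-fold lower in neurons (log2 −1.16 ± 0.157 (SE), edgeR adjusted p = 7.14e-06). In footprints the ranges overlapped, at 30.7 to 77.3 CPM (median 50.8) in MN1 cells and 16.8 to 80.0 CPM (median 42.4) in neurons. There the difference fell to log2 −0.56 ± 0.191 (edgeR adjusted p = 0.00984), and it lost significance without MN1 GFP replicate 1, MN1 hTDP-43 replicate 2, MN1 hTDP-43-A315T replicate 2 or neuron hTDP-43-A315T replicate 3 (edgeR adjusted p 0.0521 to 0.117).

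Slc2a3 showed the opposite pattern. Its total mRNA ranged from 57.9 to 116 CPM (median 86.2) in MN1 cells and from 211 to 294 CPM (median 237) in neurons, without overlap, and was 2.79-fold higher in neurons (log2 1.48 ± 0.1698, edgeR adjusted p = 1.24e-06). Its footprints, at 55.9 to 135 CPM (median 90.9) and 241 to 361 CPM (median 286), were also separate (log2 1.71 ± 0.179, edgeR adjusted p = 1.14e-08). Among 11 sugar carriers of the Slc2a family, the median share of reads per kb of Slc2a1 was 32.2% in MN1 cells and 7.57% in neurons, and that of Slc2a3 25.9% and 44.1%. The proton-linked myo-inositol carrier Slc2a13 was nearly absent from MN1 total mRNA (0 to 0.913 CPM) and present in neurons (44.3 to 90.3 CPM).

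The hexokinases gave the widest separation among the 9 genes read in both cell types. Hk2 had 78.7 to 102 CPM (median 89.4) in MN1 total mRNA and 1.69 to 13.5 CPM (median 4.16) in neurons, where the highest library was hTDP-43 replicate 3 and the other 7 lay at or below 4.86 CPM. It was 22.4-fold lower in neurons (log2 −4.48 ± 0.232, edgeR adjusted p = 1.74e-10). Footprints gave 71.4 to 111 CPM (median 80.0) and 0 to 7.56 CPM (median 2.43), a 22.8-fold difference (log2 −4.51 ± 0.227, edgeR adjusted p = 5.15e-14) that rests on 34 neuron footprints over 8 libraries. Hk1 had 66.9 to 113 CPM (median 89.8) in MN1 total mRNA and 313 to 395 CPM (median 371) in neurons. It was 4.15-fold higher in neurons (log2 2.05 ± 0.121, edgeR adjusted p = 7.1e-10), and 5.85-fold higher in footprints (log2 2.55 ± 0.117, edgeR adjusted p = 9.46e-15), which had 52.9 to 101 CPM (median 84.5) in MN1 cells and 359 to 540 CPM (median 477) in neurons. Neither library type showed overlap for either gene. Of 5 hexokinase genes, Hk1 took 40.9% of the reads per kb in MN1 total mRNA and 96.0% in neurons, and Hk2 58.3% and 1.52% (medians).

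Pfkp, the platelet-type phosphofructokinase, was more alike. Its total mRNA spanned 196 to 281 CPM (median 215) in MN1 cells and 279 to 578 CPM (median 358) in neurons, where WT replicate 3 was highest. The ranges touched, and the gene was 1.66-fold higher in neurons (log2 0.73 ± 0.158, edgeR adjusted p = 0.000607). With total counts as library sizes, which lowered the median of all genes by 0.44 on the log2 scale, Pfkp was at 0.26 (edgeR adjusted p = 0.118). Its footprints were separate at 206 to 311 CPM (median 273) and 334 to 463 CPM (median 394), with a log2 difference of 0.57 ± 0.110 (edgeR adjusted p = 6.76e-05). By median share of reads per kb of exon in total mRNA, Pfkp led the phosphofructokinase genes in neither cell type. It held 21.6% in MN1 cells and 27.2% in neurons (19.3% to 46.1% over neuron libraries). These shares depend on the length used, since Pfkp has 9395 bases of exon and 2629 of coding sequence, and they were not computed per kb of coding sequence. The liver form Pfkl held 49.3% in MN1 cells and 15.8% in neurons, and the muscle form Pfkm 28.5% and 57.0%.

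Of the aldolases, the ubiquitous Aldoa differed least of all members. It had 575 to 818 CPM (median 698) in MN1 total mRNA and 366 to 645 CPM (median 527) in neurons, with overlap. The log2 difference was −0.40 ± 0.132 (edgeR adjusted p = 0.0115), and it depended on the WT replicate 3 library described above: without that culture it was −0.23 (edgeR adjusted p = 0.0782), and without both cultures with the most Lars2 reads −0.20 (edgeR adjusted p = 0.0869). It was also not called without the 2 shallowest hTDP-43 neuron cultures (−0.30, edgeR adjusted p = 0.0982). Without a filter on low counts it was −0.33 (edgeR adjusted p = 0.0761). The other 9 members were still called without WT replicate 3. In footprints, at 1096 to 1665 CPM (median 1177) and 955 to 1528 CPM (median 1054), it was −0.15 ± 0.115 (edgeR adjusted p = 0.223).

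Aldoc is the brain aldolase, strongest in astrocytes. It had 5.65 to 26.5 CPM (median 12.1) in MN1 total mRNA and 13.5 to 47.3 CPM (median 32.8) in neurons, 2.40-fold higher (log2 1.26 ± 0.368, edgeR adjusted p = 0.00554). The 3 neuron libraries of replicate 3 (13.5 to 19.4 CPM) lay within the MN1 range, and the other 5 above it. Footprints had 9.28 to 35.1 CPM (median 20.4) and 24.3 to 87.4 CPM (median 56.3), 2.92-fold higher (log2 1.54 ± 0.297, edgeR adjusted p = 6.21e-05). In neurons Aldoc nevertheless held only 4.66% of aldolase reads per kb against 95.1% for Aldoa (medians, total mRNA), and in MN1 cells 1.52% against 98.5%. Summed astrocyte markers were also higher in the neuron cultures (492 to 937 against 62.9 to 85.6 CPM in sum, 11 of 11 markers with a median of at least 1 CPM against 3 of 11), and their part in the Aldoc difference was not tested. The sum was carried mainly by Slc1a2 (196 to 518 CPM in neurons) and Apoe (65.7 to 273 CPM), while Sox9 went the other way, with 25.2 to 43.6 CPM in MN1 total mRNA and 7.64 to 12.3 CPM in neurons. With total counts as library sizes Aldoc in total mRNA was at 0.86 (edgeR adjusted p = 0.0575).

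Pkm had 698 to 974 CPM (median 835) in MN1 total mRNA and 249 to 568 CPM (median 482) in neurons, with the lowest value in WT replicate 3 and no overlap. It was 1.85-fold lower in neurons (log2 −0.89 ± 0.164, edgeR adjusted p = 0.000159). In footprints the ranges, 885 to 1020 CPM (median 954) and 568 to 896 CPM (median 661), overlapped at their edges, and the log2 difference was −0.46 ± 0.110 (edgeR adjusted p = 0.000569).

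Ldha was 3.04-fold lower in neuron total mRNA (log2 −1.60 ± 0.166, edgeR adjusted p = 3.97e-07), with 756 to 888 CPM (median 843) in MN1 cells and 149 to 361 CPM (median 290) in neurons. Its footprints were 1.88-fold lower (log2 −0.91 ± 0.120, edgeR adjusted p = 4.2e-07), with 642 to 856 CPM (median 718) and 308 to 500 CPM (median 396). The cell types did not overlap in either library type.

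Ldhb, which encodes the H subunit, was not read once in MN1 cells: 0 of 11741800 total mRNA reads and 0 of 4494797 footprints. A count of 0 allows up to 3 reads per library, which is 0.905 to 1.82 CPM in MN1 total mRNA and 2.53 to 7.93 CPM in MN1 footprints. Neurons had 65.0 to 189 CPM (median 148) in total mRNA, from 3492 reads, and 238 to 346 CPM (median 298) in footprints, from 2475 reads. Set against the highest of these limits, the lowest neuron library was at least 35.8-fold higher in total mRNA and at least 30.04-fold higher in footprints. Of its neighbours within 500000 bases on chromosome 6, Golt1b was read at 87.1 to 92.4 CPM, Cmas at 70.6 to 83.0 CPM and Recql at 12.1 to 26.4 CPM in MN1 total mRNA. These neighbours were chosen after their values were seen, as those with a median above 10 CPM in MN1 total mRNA.

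**Figure D2:**
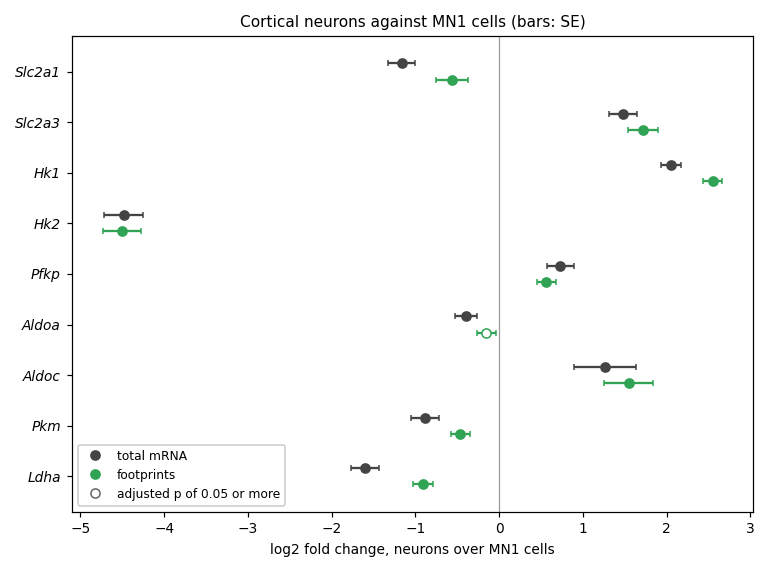
Difference between cortical neurons and MN1 cells for the 9 genes read in both, as log2 fold change (x axis) in total mRNA (dark) and in footprints (green), with bars of 1 SE and open points where the edgeR adjusted p was 0.05 or more. Hk2 lies at −4.48 and −4.51 and Hk1 at 2.05 and 2.55, while Aldoa in footprints is the open point at −0.15.

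The ratio of 2 isozymes within a library does not depend on library scaling and was tested over cultures (6 MN1 against 8 neuron) with an exact two-sided permutation test, adjusted over 8 tests, where 0.000666 is the smallest p this design can give. Ratios are per kb of exon and means ± SD are on the log2 scale. Slc2a3 over Slc2a1 was −0.28 ± 0.34 in MN1 total mRNA (n = 6, ratio 0.590 to 1.21) and 2.40 ± 0.19 in neurons (n = 8, ratio 3.96 to 5.93). The ratio was 6.44-fold higher in neurons (exact permutation p = 0.000666, adjusted p = 0.000888). In footprints the shift was 4.46-fold (exact permutation p = 0.000666, adjusted p = 0.000888), with ratios from 0.506 to 0.919 for MN1 cells, against 1.24 to 6.03 for neurons. With control groups only the footprint shift was 7.62-fold. The neuron footprint ratios were spread widely (SD 0.72 on the log2 scale). The highest were the 2 of WT, at 4.54 and 6.03, and the lowest the 2 of hTDP-43 replicates 2 and 3, at 1.89 and 1.24, which rest on 9 and 12 Slc2a1 reads.

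Hk1 over Hk2 moved most among the 3 pairs read in both cell types. It was −0.54 ± 0.31 in MN1 total mRNA (ratio 0.526 to 0.877) and 5.88 ± 0.87 in neurons (ratio 18.0 to 142), an 85.3-fold shift, and 123-fold in footprints (both exact permutation p = 0.000666, adjusted p = 0.000888). The footprint value depends on the 0.5 added to each count, since the 8 neuron libraries held 34 Hk2 reads and 1 of them held 0. Aldoc over Aldoa rose by a smaller factor, 3.17-fold in total mRNA and 2.99-fold in footprints (both exact permutation p = 0.00133, adjusted p = 0.00133), and here the cell types overlapped. Ldhb over Ldha was 0 in all MN1 libraries, and 0.536 to 1.17 in neuron total mRNA and 1.15 to 1.69 in neuron footprints, again without overlap (exact permutation p = 0.000666, adjusted p = 0.000888). How large one isozyme is beside the other within a cell type depended on the length used, and these values are given with the other settings in the closing section. The differences between cell types do not, since a gene's length cancels.

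**Figure D3:**
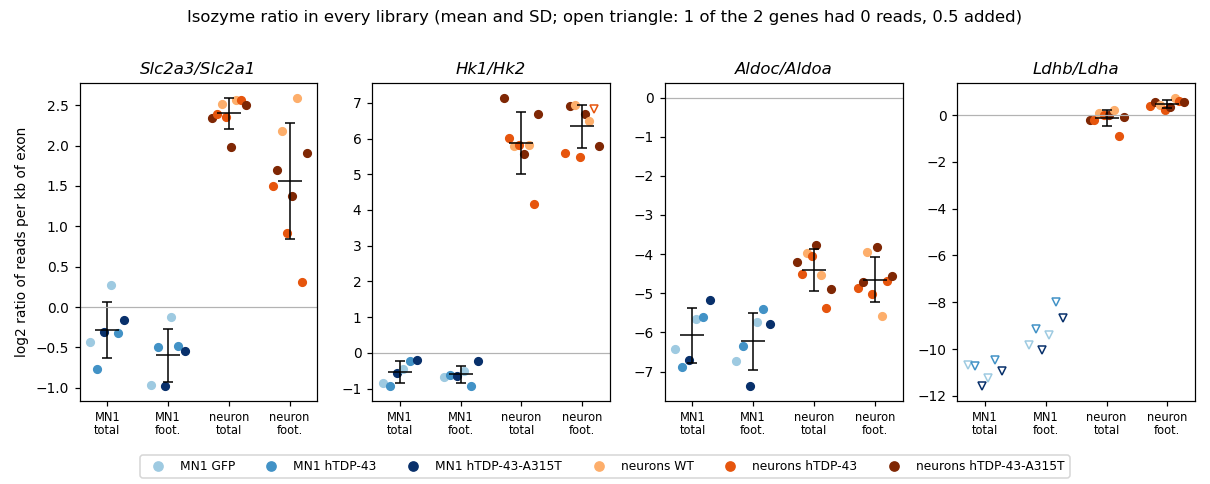
Ratio of 2 isozymes in every library, in log2 of reads per kb of exon with 0.5 added to each count, by cell type and library type, with mean and SD in black and genotypes in colour; open triangles mark libraries in which 1 of the 2 genes had 0 reads, for which no mean is drawn in MN1 Ldhb/Ldha. MN1 and neuron libraries are separate for Slc2a3/Slc2a1, Hk1/Hk2 and Ldhb/Ldha and overlap for Aldoc/Aldoa.

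The remaining genes of glycolysis did not follow 1 direction either. Of 21 other glycolytic enzymes, 13 could be tested in total mRNA, and 4 were higher and 7 lower in neurons (in footprints 4 higher and 5 lower of 11). Their median log2 difference was −0.38 in total mRNA and −0.10 in footprints. Triosephosphate isomerase (Tpi1) was lower in neurons (log2 −1.07) and glucose-6-phosphate isomerase (Gpi1) higher (0.68), and the neuronal enolase Eno2 was 6.08-fold higher (log2 2.60). Phosphoglycerate mutase 1 (Pgam1) was at −0.07 (edgeR adjusted p = 0.738) and is uncertain, with 6.12% of its exonic 30-base stretches unique. Within the enolases Eno2 held 18.4% of reads per kb in MN1 cells and 72.7% in neurons, and Eno1 62.9% and 23.7% (medians, total mRNA).

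Of 16 genes of pyruvate and lactate handling, 7 were higher and 6 lower in neuron total mRNA among 15 tested (8 and 4 of 15 in footprints). The lactate exporter Slc16a3 (MCT4) had 257 to 464 CPM in MN1 cells and 0 to 11.9 CPM in neurons (log2 −6.0), and its chaperone Bsg was lower in neurons (−0.46). The pyruvate dehydrogenase subunits went apart in total mRNA, Pdha1 at 0.73 and Dlat at −0.70. In footprints Slc16a3 (−6.60) and Pdha1 (1.37) kept their direction. Bsg (−0.14, edgeR adjusted p = 0.2265) and Dlat (−0.01, edgeR adjusted p = 0.934) did not pass there. Of 9 other sugar carriers 4 could be tested in total mRNA, with 2 higher (Slc2a13 and Slc2a6, 1.14) and 1 lower (Slc2a9, −2.62), and in footprints 2 of 3 were higher.

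Of 17 regulators of glycolysis, 7 were higher and 8 lower in neuron total mRNA among 16 tested (5 and 6 of 12 in footprints). Hif1a, the HIF alpha subunit, was lower (log2 −1.46), as were the prolyl hydroxylase gene Egln1 (−0.71) and Myc (−3.28), whereas the glucose-responsive factor Mlxip was higher (0.41). Of 15 other hypoxia-inducible genes 5 were higher and 9 lower in total mRNA (4 and 6 of 13 in footprints). Vegfa (−1.76), Ddit4 (−1.39), P4ha2 (−3.92) and Pgk1 (−0.38) were among the lower ones in total mRNA, and Pgk1 did not pass in footprints (−0.10, edgeR adjusted p = 0.525). Of 14 genes of gluconeogenesis and the pentose phosphate pathway 10 were tested. None was higher in neurons, and 7 were lower in total mRNA and 9 in footprints, with Pgd at −2.07, Pgls at −1.22, Taldo1 at −0.99 and transketolase (Tkt) at −0.36 in total mRNA. The background was 42.6% higher and 38.4% lower in total mRNA and 42.7% and 39.9% in footprints, as above, and the lists were not tested as sets.

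The next question was how footprints compared with total mRNA of the same cultures. The paper reports that footprints, unlike total mRNA, mapped preferentially to coding sequence over 3′ untranslated regions. Counts here cover all exons, whose coding part differs between genes (1002 of 1570 bases in Ldhb, 1546 of 7245 in Slc2a3). The order of genes by footprint excess was not corrected for this. In MN1 cells 4 of the 9 genes read had more footprints than total mRNA, relative to all genes: Slc2a1 (log2 0.45 ± 0.182, edgeR adjusted p = 0.0485), Pfkp (0.28 ± 0.102, adjusted p = 0.0289), Aldoa (0.96 ± 0.103, adjusted p = 2.95e-06) and Pkm (0.27 ± 0.087, adjusted p = 0.0156). None had fewer, and the background was 57.4% of all genes (27.2% higher in footprints). Aldoa was the firm one, with 1096 to 1665 CPM in footprints above 575 to 818 CPM in total mRNA, on CPM scaled separately within each library type. Leaving out GFP replicate 1 or hTDP-43-A315T replicate 1 left 1 call, leaving out hTDP-43 replicate 1, GFP replicate 2 or hTDP-43 replicate 2 left 2, leaving out hTDP-43-A315T replicate 2 left 3, and Aldoa was called in each of these fits. With the culture as a replicate block Aldoc was added (0.78 ± 0.209, edgeR adjusted p = 0.00286), which made 5 genes beside a background of 61.5%.

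In neurons 8 of 10 genes had more footprints than total mRNA, none had fewer, and the background was 54.0% (26.6% higher in footprints). Aldoa (log2 1.22 ± 0.126, edgeR adjusted p = 4.44e-07), Ldhb (1.17 ± 0.179, adjusted p = 3.22e-05) and Slc2a1 (1.07 ± 0.174, adjusted p = 5.48e-05) differed most. Aldoc (0.93 ± 0.274), Pkm (0.70 ± 0.151), Ldha (0.61 ± 0.156), Hk1 (0.46 ± 0.098) and Slc2a3 (0.38 ± 0.112) followed, with edgeR adjusted p of 0.000749 to 0.00889. Hk2 (−0.12) and Pfkp (0.12) did not pass. Slc2a3 lost significance without hTDP-43-A315T replicate 2 or any of the 3 cultures of replicate 3 (edgeR adjusted p 0.0543 to 0.108), and Aldoc without hTDP-43 replicate 1 (0.0596). For Ldhb, all 8 footprint libraries (238 to 346 CPM) lay above all 8 total mRNA libraries (65.0 to 189 CPM). The same held for Aldoa (955 to 1528 against 366 to 645 CPM) and, only just, for Pkm (568.4 to 895.8 against 248.9 to 567.9 CPM). CPM were scaled separately within each library type, and the share of all genes separated in this way was not determined. The separation can therefore not be read as particular to these genes.

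**Figure D4:**
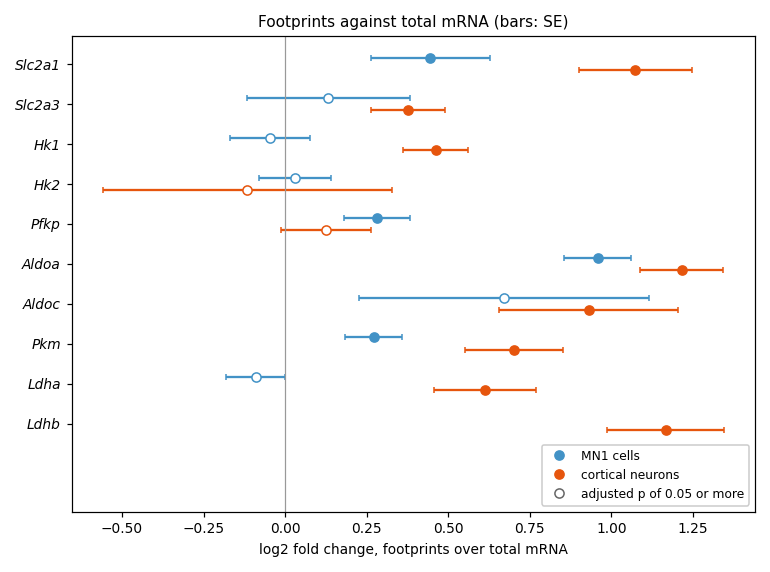
Footprints against total mRNA for each gene, as log2 fold change (x axis) in MN1 cells (blue) and cortical neurons (orange), with bars of 1 SE and open points where the edgeR adjusted p was 0.05 or more; Ldhb had no reads in MN1 cells. Aldoa lies at 0.96 and 1.22, and Ldha at −0.09 in MN1 cells and 0.61 in neurons.

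The cell types differed in this footprint excess for 2 of the 10 genes by a test of the interaction: Ldha (log2 0.80 ± 0.214 higher in neurons, edgeR adjusted p = 0.0204) and Hk1 (0.61 ± 0.162, edgeR adjusted p = 0.0200). The background was 8.07% of genes (5.94% higher in neurons). The median over all genes was itself at 0.20, so that relative to it the differences were 0.60 and 0.41. These calls depended on scaling: with the other size factors the median moved by −0.22 (RLE in edgeR) and −0.27 (DESeq2), the share of calls that were higher in neurons went from 73.6% to 31% and 30.9%, and neither Ldha (0.58 in both) nor Hk1 (0.39 in both) was called. The replicate block gave 4 calls beside a background of 10.7%, adding Slc2a1 (0.69 ± 0.214, edgeR adjusted p = 0.0426) and Pkm (0.56 ± 0.173, edgeR adjusted p = 0.0417). No member was called without MN1 hTDP-43 replicate 1, MN1 GFP replicate 2, MN1 hTDP-43 replicate 2, MN1 hTDP-43-A315T replicate 2, neuron hTDP-43 replicate 1 or neuron hTDP-43-A315T replicate 1, and 3 were without WT replicate 2. Footprints lack poly(A) selection and the cell types differ in cycloheximide, so these differences cannot be told apart from the protocol.

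The genotype comparisons asked whether hTDP-43 or its mutant changed these genes. No member passed in any of 12 comparisons by edgeR, with or without the replicate block, or by DESeq2. Over 111 tests of members the log2 fold changes ran from −0.96 to 1.43, 104 lay within 0.5 of 0, and the median SE was 0.20. At an unadjusted p under 0.05 there were 4 of the 111, for which no share of all genes is given, and the smallest edgeR adjusted p was 0.317. Without the block 0 members were called beside 0.00965% of all genes in MN1 total mRNA for the mutant against GFP, 0.0100% for hTDP-43 against GFP and 0% for the mutant against hTDP-43. In MN1 footprints 0 were called beside 0.0115% for the mutant against GFP and 0% in the other 2 contrasts, and in neurons the background was 0% in all 6. Ldhb could not be tested in MN1 cells, nor Hk2 in neuron footprints. The other lists of glycolysis and related pathways had 0 genes called in these fits as well.

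With the replicate block, more genes passed but no member did. In MN1 total mRNA 0 members were called beside 2.73% of all genes for the mutant against GFP, 0.754% for the mutant against hTDP-43 and 0.472% for hTDP-43 against GFP, and in MN1 footprints beside 0.624%, 0.706% and 0.156% in the same order. In neuron total mRNA 0 were called beside 0.293% for the mutant against WT, 0% for the mutant against hTDP-43 and 0.169% for hTDP-43 against WT, and in neuron footprints beside 0.0841%, 0.179% and 0.0616%. The members nearest to the threshold, named after their values were seen, were Aldoa and Hk1 for the mutant against GFP. Aldoa footprints in MN1 cells were 1122 and 1172 CPM with GFP and 1363 and 1665 CPM with the mutant (log2 0.39 ± 0.099, edgeR adjusted p = 0.0952 with the block and 1.0 without it). For Hk1 in MN1 total mRNA the log2 difference was 0.35 ± 0.124 with the block (edgeR adjusted p = 0.118, and 0.849 without it).

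Within both replicate numbers, the CPM of all 9 genes read in MN1 total mRNA was higher with the mutant than with GFP. This also held for 35.1% of the 12801 genes tested over both cell types. That base keeps genes not read in MN1 cells, which count as not higher, so it is not matched to the 9 genes. In footprints the CPM was higher with the mutant for 5 of 9 (Hk1, Hk2, Pfkp, Aldoa and Pkm), beside 25.9% of the 10698 genes tested over both cell types. The differences depend on scaling: in the fit of the 2 groups alone Ldha was at −0.02. In MN1 total mRNA Ldha had 843 ± 3.39 CPM in GFP cultures, 790 ± 49.0 CPM in those given hTDP-43 and 875 ± 18.2 CPM in those given its mutant (mean ± SD, n = 2 each). Pkm had 773 ± 106, 773 ± 70.6 and 944 ± 42.5 CPM, and Hk1 79.1 ± 6.69, 81.3 ± 20.4 and 106 ± 9.93 CPM, in the same order. For Ldha, Pkm and Hk1, named after their values were seen, both hTDP-43-A315T libraries lay above the other 4, a difference that no test called. For the other genes read in MN1 cells they did not. The share of all genes separated in this way was not determined, so this cannot be read as particular to these genes. In neuron total mRNA Hk1 had 353.7 ± 58.0 CPM in WT (n = 2), 382 ± 8.40 CPM in the hTDP-43 genotype and 359 ± 12.3 CPM in the mutant (n = 3 each), and Ldhb 140 ± 68.5, 131 ± 57.4 and 140 ± 17.4 CPM. The wide WT spread is that of only 2 cultures, replicates 2 and 3, which lay apart. Pkm, for example, had 537 CPM in WT replicate 2 and 249 CPM in WT replicate 3.

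The lowest p in a genotype comparison belonged to Slc2a1 in neuron footprints, named here after its values were seen. WT had 21.6 CPM (28 reads) and 16.8 CPM (9 reads), the hTDP-43 cultures had 50.2 (113 reads), 48.3 (9 reads) and 80.0 CPM (12 reads), and those of the mutant had 36.5 (86 reads), 50.3 (23 reads) and 33.1 CPM (31 reads). Both transgenic genotypes lay above WT in all libraries, but on few reads in several of them. Of the 10698 genes tested in footprints over both cell types, 8.49% had all hTDP-43 neuron libraries above both WT libraries. That base leaves the mutant aside and keeps genes not read in neurons, so it is not matched to the pattern of Slc2a1. The log2 fold change for hTDP-43 against WT was 1.43 ± 0.320 (unadjusted p = 0.00041, edgeR adjusted p = 0.317), and the replicate block gave an adjusted p of 0.392. In total mRNA the levels were 13.8 and 16.4 CPM in WT, 15.7, 16.2 and 22.1 CPM in hTDP-43 neurons, and 14.98, 19.9 and 22.96 CPM for the mutant, which overlapped.

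Some members differed between the replicate numbers, which stand for culture dates. In the labels, libraries of 1 replicate number within a cell type carry the same date, apart from the year of a single GFP footprint library. The comparison of replicate 1 with replicate 2 of MN1 cells had genotype as a covariate. In MN1 total mRNA 4 of 9 members were lower in replicate 1 and none was higher, with a background of 15.2% (6.51% lower). Aldoc had 5.65 to 7.84 CPM in replicate 1 and 16.4 to 26.5 CPM in replicate 2 (log2 −1.52 ± 0.243, edgeR adjusted p = 0.00061), and Slc2a3 57.9 to 77.2 and 95.1 to 116 CPM (−0.70 ± 0.100, edgeR adjusted p = 0.000266). For both genes all 3 libraries of replicate 1 lay below all 3 of replicate 2. In one or the other direction 22.5% of the 12801 genes tested over both cell types were separate, a base that keeps genes not read in MN1 cells. Pfkp (−0.26 ± 0.080, edgeR adjusted p = 0.0330) and Aldoa (−0.25 ± 0.065, edgeR adjusted p = 0.0161) differed less, and Ldha did not (−0.02, edgeR adjusted p = 0.899).

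Footprints of MN1 cells gave the same pair of leading genes, beside a background of 4.67% (2.60% lower in replicate 1). Slc2a3 had 55.9 to 67.8 CPM in replicate 1 and 114 to 135 CPM in replicate 2 (log2 −1.0 ± 0.149, edgeR adjusted p = 0.000473). Aldoc had 9.28 to 15.4 and 25.3 to 35.1 CPM (log2 −1.41 ± 0.326, edgeR adjusted p = 0.0172). DESeq2 called Slc2a3 and Aldoc in total mRNA and 0 members in footprints. Leaving out hTDP-43-A315T replicate 1 or 2 ended the Aldoc call in footprints, leaving out GFP replicate 1 or 2 ended the Aldoa and Pfkp calls in total mRNA, and leaving out either hTDP-43-A315T culture ended that of Pfkp. Proliferation markers moved with the date as well, at 1433 to 1510 CPM in sum in replicate 1 and 1113 to 1182 CPM in replicate 2 of MN1 total mRNA, and astrocyte markers little, at 62.9 to 78.7 and 75.3 to 85.6 CPM. Their part in the differences was not tested.

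**Figure D5:**
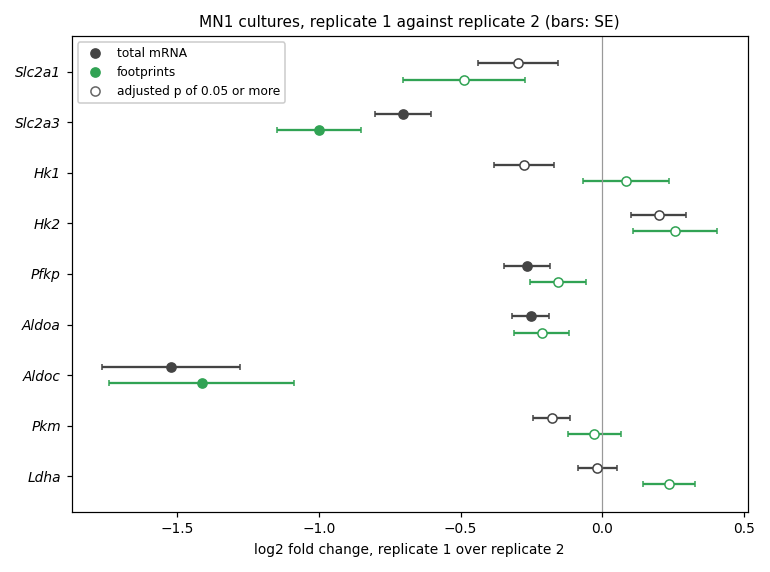
MN1 cultures of replicate 1 against replicate 2, as log2 fold change (x axis) for the 9 genes read, in total mRNA (dark) and footprints (green), with bars of 1 SE and open points where the edgeR adjusted p was 0.05 or more. Aldoc lies at −1.52 and −1.41 and Slc2a3 at −0.70 and −1.0.

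Neuron cultures of replicate 2 and replicate 3 did not differ in any member by edgeR at an adjusted p under 0.05, in total mRNA (background 0.392%) or in footprints (background 0.442%). At an unadjusted p under 0.05 there were 3 members in total mRNA and 2 in footprints. No share of all genes is given for these counts, so they cannot be read as particular to the members. Aldoc came nearest, with 39.9 to 47.3 CPM in replicate 2 and 13.5 to 19.4 CPM in replicate 3 (log2 1.31, edgeR adjusted p = 0.13). The 2 libraries of replicate 1 were between, at 32.1 and 33.6 CPM. Leaving out hTDP-43-A315T replicate 2 or replicate 3 gave 5 calls (Pfkp, Aldoc, Pkm, Ldha and Ldhb). The background above is that of the fit with all cultures. The share of all genes called in the fits without a culture is not given here, so these calls cannot be read as particular to the members. Astrocyte markers summed to 684 to 777 CPM in replicate 2 and 492 to 937 CPM in replicate 3, and their part in the Aldoc values was not tested.

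To describe which genes varied most like Slc2a1, Hk2 and Aldoc among cultures, log2 CPM was correlated over the 14 total mRNA libraries after group means were subtracted, among 9924 protein-coding genes. Slc2a1 varied most like Rab18 (Pearson r = 0.90), Dnajb4 (0.90) and Ahcyl1 (0.88). Hk2 went with Zbtb46 (0.93) and Olfml1 (0.92), and Aldoc with Hap1 (0.94), Aldh5a1 (0.93) and Neu1 (0.93). The points share libraries, depth and dates, and these correlations are the highest of many, so they are a description without a test.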

How the data were processed

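The authors clipped adapters with cutadapt (1.8.1), filtered out non-coding RNA reads with Bowtie2, mapped the rest to GRCm38 with TopHat2 and counted unique alignments over exons with featureCounts (1.4.4), without regard to strand. The deposited values are raw counts per gene and library, neither normalised nor pooled, for 45513 genes in 28 libraries, of which 44585 have a symbol in GENCODE M21. No 2 libraries were identical. Groups came from the sample labels. The 10 members and all gene lists were chosen with earlier results of these data known.

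Counts were tested with edgeR (4.0.16, R 4.3.3) by the quasi-likelihood test after filterByExpr (minimum count 10, minimum total 15) and TMM scaling, adjusted by Benjamini-Hochberg over all genes tested at 0.05. The script was tested on simulated data. SEs were derived from the F statistic (absolute log2 change over its square root). Cell types were compared over 14 libraries of a type with 6 group means, genotypes within the libraries of the 2 groups, footprints with total mRNA over the libraries of a cell type, their interaction over all 28 libraries, and dates with genotype as covariate. CPM values use the TMM factors of all 14 libraries of a type. Each library's limit is 3 counts and covers counting error only. Isozyme ratios used counts plus 0.5 per kb of exon. All members are described, up to 4 examples of each list are those with the highest mean CPM, and likeness used genes of at least 10 CPM on average (prior count 2), taking the 3 highest correlations, of which 1 for Hk2 is not reported here.

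Libraries of 1 number within a cell type have 1 common date in their labels (1 GFP footprint library differs in year), so the numbers pair cultures. Deviations from group means correlated between same-numbered libraries with r of 0.39 to 0.52 in MN1 total mRNA, 0.30 to 0.38 in MN1 footprints, −0.17 to 0.52 in neuron total mRNA and 0.03 to 0.25 in neuron footprints. Alternatives were DESeq2 (1.42.0), RLE factors, no filter, total counts as library sizes, control groups only, a replicate block, other gene lengths, and leaving out cultures. The length settings and the fits without the cultures richest in Lars2 were chosen after seeing the data. Uniqueness of exons was taken from all 30-base stretches of the GRCm38.p6 sequence.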

Additional observations from a re-analysis of the deposited data

Results flagged for a closer look

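In 2 genes the excess of footprints over total mRNA differed between cortical neurons and MN1 cells by a test of the interaction in edgeR. For Ldha it was 0.80 higher in neurons on the log2 scale, with −0.09 in MN1 cells and 0.61 in neurons, and for Hk1 it was 0.61 higher, with −0.05 and 0.46. Both values include the shift of 0.20 in the median of all genes, and both calls ended under RLE factors and under DESeq2.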

How the results depend on the processing

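Of 29 summary results, 20 were rated unchanged under every alternative run, among them 10 of the 12 genotype comparisons and 7 of the 8 isozyme ratios. For fits this rating compared the number of members called and allowed small changes in it. Single members could thus gain or lose a call in a result rated unchanged. In the comparison of cell types, members called in total mRNA numbered 5 with control groups only and 9 to 10 when 1 culture was left out, and in footprints 7 and 8 to 9. With control groups only, on 4 cultures, the members that were not called had log2 differences of −1.05 (Slc2a1), 1.06 (Pfkp), −0.39 (Aldoa), 1.39 (Aldoc) and −0.88 (Pkm) in total mRNA, and 0.46 (Pfkp) and −0.46 (Pkm) in footprints, all in their former direction. Total counts as library sizes moved the median of all genes by −0.44 in total mRNA and −0.20 in footprints, turned the share of calls that were higher in neurons from 52.6% to 42.4% in total mRNA, and left 8 members called there (Pfkp 0.26 and Aldoc 0.86 were lost) and 10 in footprints. Aldoa in footprints turned to 0.011 without the 2 shallowest hTDP-43 neuron cultures. Without a filter on low counts, 1 member was called in each of neuron footprints of hTDP-43 against WT (Slc2a1), footprints against total mRNA in MN1 cells (Aldoa), the interaction (Ldha) and the neuron dates in total mRNA (Aldoc). DESeq2 gave 0 members for the interaction, 2 for MN1 dates in total mRNA and 0 in footprints, and RLE factors gave 0 for the interaction. Over all genes, the interaction had 997 calls, and 657 by DESeq2 and 604 with RLE factors. MN1 dates had 1524 in total mRNA and 382 in footprints, and 223 and 63 by DESeq2, and neuron dates 44 and 33, and 82 and 15.

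With the replicate block, which here pairs cultures by date, 4 members were called in the interaction instead of 2 and 5 in MN1 footprints against total mRNA instead of 4, and no other call of a member changed, although calls over all genes in the genotype comparisons rose, for example from 1 to 283 for hTDP-43-A315T against GFP in MN1 total mRNA. Leaving out 1 culture gave 1 to 3 calls for MN1 footprints against total mRNA, 0 to 3 for the interaction, 2 to 4 and 1 to 3 for MN1 dates in total mRNA and footprints, 0 to 5 for neuron dates in total mRNA, and 0 to 3 for hTDP-43-A315T against WT in neuron total mRNA, where the 3 calls (Pfkp, Pkm, Ldha) appeared without WT replicate 2 and rested on WT replicate 3 alone. The Slc2a3/Slc2a1 shift in footprints was 2.93 on the log2 scale with control groups only, against 2.16 over all cultures. Ratios within a cell type depended on length. Per kb of coding sequence, Slc2a3/Slc2a1 in MN1 cells turned from −0.28 to 1.00 in total mRNA and from −0.60 to 0.69 in footprints. Ldhb/Ldha in neurons went from 0.49 to −0.33 in footprints and from −0.13 to −0.95 in total mRNA. Per kb of unique sequence Ldhb/Ldha in neuron total mRNA turned from −0.13 to 0.17. The cause of the other changes was not tested. Depth limits Slc2a1, Hk2 and Aldoc in the shallow neuron footprint libraries.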
